A study of Mus musculus with 6 samples.

Results

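Mouse dendritic cells in which reactive oxygen species (ROS) had been made by light were compared with unstimulated dendritic cells, using 4 of the 6 arrays of the series. The members of the comparison were chosen by their sample labels, 2 arrays labelled as stimulated with intracellular ROS against 2 labelled as unstimulated, and all 7989 genes named for the deposited log2 table were compared. Every culture came from bone marrow of Rag2 knockout mice aged 6 weeks, labelled C57BL/10NAGCSnAi-(KO) Rag2 with strain background C57BL, so the unstimulated cells carried the deletion too. Rag2 is needed to assemble antigen receptors, and a mouse without it makes no mature T or B cells. The marrow had been grown for 6 d with GM-CSF and IL-4, each at 1.5 ng/ml. For the ROS group, hematoporphyrin, a porphyrin that makes ROS when lit, was loaded for 1 h at 1 µg/ml, and the excess was removed. A light-emitting diode spanning 450 to 600 nm, with its peak at 515 nm and an intensity of 3.1 mW per square cm, then lit the cells for 3 min, and RNA was taken 18 h later. Whether unstimulated cells met hematoporphyrin, light or that further culture is not stated in the labels, so these cannot be told apart from ROS. Nor do the labels say whether the 2 replicates of a group were separate cultures or animals, so the spread behind each p-value may be technical. The 2 further arrays, of cells given lipopolysaccharide (LPS) at 1 µg/ml for 18 h, entered the fit to estimate that spread.

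Dendritic cells sample their surroundings by endocytosis and carry antigen to T cells. Immature cells hold many uptake and pattern recognition receptors, and on maturation they raise costimulatory molecules such as CD80 and CD86 and cytokines that steer the T cell. Cultures of marrow in GM-CSF also hold macrophage-like cells and granulocytes. ROS oxidise lipids, proteins and nucleic acids, and cells commonly answer through the transcription factor NRF2, heat shock proteins and p53, while singlet oxygen is the usual product of a lit porphyrin.

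The 4 arrays detected similar numbers of probes, 11251 to 11438 of 25697 at a detection p under 0.05. Mean signal was higher on both unstimulated arrays, at 765 and 704 intensity units, than on the ROS arrays, at 626 and 643. Arrays of 1 group correlated across probes at 0.996 (unstimulated) and 0.995 (ROS), and arrays of the different groups at 0.941 to 0.943, values that describe probes rather than replicates. The median gap between the replicate arrays of a gene was 0.0847 log2 units in the unstimulated and 0.098 in the ROS group. All levels below are the authors' quantile normalised log2 intensities, 1 probe per gene, and a difference is the ROS mean minus the unstimulated mean, with its standard error (SE, n = 2 per group) and an adjusted p from limma. The number of arrays limits the precision. These values carry no visible background subtraction, so the fold of a dim gene is understated.

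The dendritic cell label was checked on 15 markers, of which 13 were measured and Flt3 and Cd209a have no probe in the table. Of the 13, 5 rose (38.5%, against 25.6% of all genes) and 4 fell (30.8%, against 20.2%), with a median of -0.02. The class II chain H2-Ab1 was bright on every array, at 15.65 and 15.45 on the unstimulated and 13.80 and 13.74 on the ROS arrays. Itgax, which encodes CD11c, was dim, at 7.66 and 7.61 against 7.50 and 7.40 (difference -0.19 ± 0.09, adjusted p = 0.107). Zbtb46 and Batf3, transcription factors of conventional dendritic cells, were detected on all 4 arrays and rose by 0.54 ± 0.08 and 0.67 ± 0.10. Irf4 and Irf8, which direct the dendritic cell subsets, differed by -0.22 ± 0.13 and -0.02 ± 0.14 and did not pass the test.

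A large part of the transcriptome differed between the groups. Of 7989 genes, 3662 (45.8%; 43.9% of the 11220 probes) were called at an adjusted p under 0.05, 2049 higher (25.6%) and 1613 lower (20.2%) after ROS. These shares, 25.6% higher and 20.2% lower, are the background for every list count below. The median difference over all genes was 0.03. Without any scaling of the arrays that median was -0.10, and 1138 genes were called higher and 2443 lower, so that 31.8% of calls were rises against 56% in the authors' scaled values. A difference of at least 1, which is 2-fold, together with the call, was reached by 254 genes upward (3.18%) and 321 downward (4.02%). Larger falls outnumbered larger rises, with 60 genes at least 4-fold lower against 20 at least 4-fold higher, and 17 against 2 at 8-fold. The groups did not overlap for 5826 genes (72.9%), the background for every statement below that the arrays of a gene lay apart. Most genes named below were picked for being called, so those statements describe the values and add no further support. Dim genes were called less often, since 8.26% of the 1998 dimmest genes was called higher against 36.4% of the 1997 brightest.

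**Figure D1:**
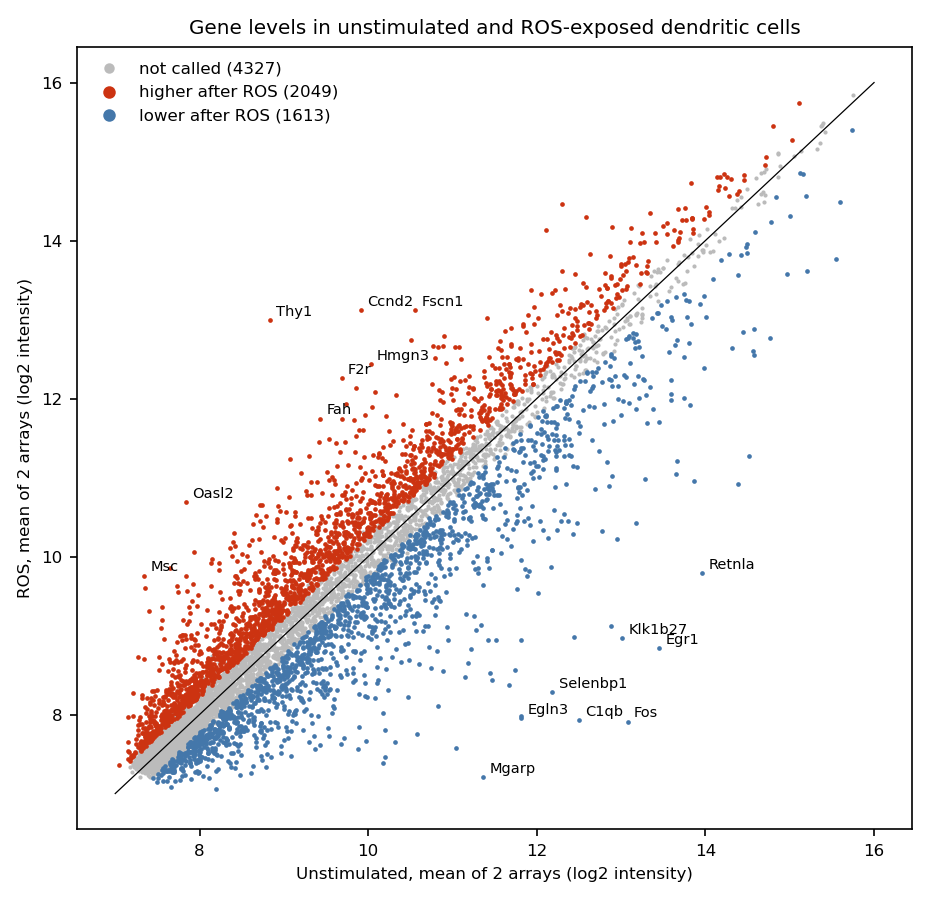
Mean log2 intensity of each of 7989 genes on the 2 unstimulated arrays (horizontal axis) and the 2 ROS arrays (vertical axis); red points were called higher (2049), blue points lower (1613) and grey points not called, the line marks equal levels, and 16 genes are labelled. Thy1 lies farthest above the line and Fos farthest below it.

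The gene with the largest rise was Thy1, a surface glycoprotein best known from T cells and neurons. It was at 8.86 and 8.82 on the unstimulated arrays and at 13.04 and 12.96 on the ROS arrays, a difference of 4.16 ± 0.08 or 17.9-fold (adjusted p = 2.15e-10). Ccnd2, the D-type cyclin that starts the cell cycle, went from 9.76 and 10.06 to 13.25 and 12.98 (3.20 ± 0.12, 9.22-fold). Both genes were taken from those whose groups did not overlap, so their ROS arrays lay above their unstimulated arrays by that choice. F2r, the thrombin receptor, followed at 9.72 and 9.65 against 12.25 and 12.26 (2.57 ± 0.08). Fscn1, which bundles actin in the processes of mature dendritic cells, was at 10.47 and 10.65 against 13.14 and 13.11 (2.56 ± 0.09). Hmgn3, a nucleosome-binding protein, rose by 2.41 ± 0.08, and its 2 probes gave 2.37 and 2.41. The other large rises included Fah, the last enzyme of tyrosine breakdown (2.31 ± 0.09), Tcaf2, a regulator of TRP ion channels (2.23 ± 0.10), and Cstdc4, a cystatin of the stefin A type (2.20 ± 0.10).

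A pair of genes came up from background. Msc, a basic helix-loop-helix repressor, was at 7.29 and 7.39 and detected on 1 of the 2 unstimulated arrays, against 9.79 and 9.73 after ROS. Its fitted difference was 2.42 ± 0.10, and it was at least 5.19-fold higher when the other array was set to its lowest detected value. Cyp4a12a, a fatty acid hydroxylase, was at 7.39 and 7.32, again detected on 1 of 2, against 9.61 and 9.61 (2.26 ± 0.08, at least 4.66-fold higher). With normexp background correction the differences of Msc and Cyp4a12a were 4.36 and 4.14.

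The falls went further than the rises. Fos, an AP-1 subunit that is induced within minutes of a stimulus, was at 13.14 and 13.02 on the unstimulated arrays and at 7.81 and 8.01 on the ROS arrays (-5.17 ± 0.10, 35.9-fold lower, adjusted p = 2.15e-10). Egr1, a zinc finger factor of the same early response, was at 13.54 and 13.36 against 8.89 and 8.81 (-4.60 ± 0.11). C1qb, a chain of the first complement component, was at 12.59 and 12.41 against 7.96 and 7.89 (-4.57 ± 0.09). These 3 genes, taken by the same choice, were bright on the unstimulated arrays and far dimmer on the ROS arrays. Retnla, a secreted protein that IL-4 induces in macrophages, was at 13.94 and 13.99 against 9.81 and 9.76 (-4.18 ± 0.11). Mgarp, a mitochondrial protein, was at 11.41 and 11.31 against 7.18 and 7.23. It was not detected on either ROS array and was at least 15.8-fold lower there; its difference was -4.15 in the authors' values and -6.51 with background correction.

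Selenbp1, which binds selenium (-3.90 ± 0.12), fell deeply too, as did Egln3, an oxygen-sensing prolyl hydroxylase (-3.86 ± 0.13), Pltp, which transfers phospholipids between lipoproteins (-3.83 ± 0.09), and Mrc1, the mannose receptor (-3.76 ± 0.08). The second Pltp probe gave -1.13. Kallikreins of the Klk1b cluster were lower as well, led by Klk1b27 at 13.01 and 13.02 against 8.92 and 9.02 (-4.04 ± 0.08) and Klk1b11 (-3.47 ± 0.08). Of 8 measured Klk1b genes 7 were called lower and 0 higher. These paralogs are close to identical in sequence, so which of them the probes measured is uncertain, and the 2 probes of Klk1b27 gave -4.04 and -1.13.

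**Figure D2:**
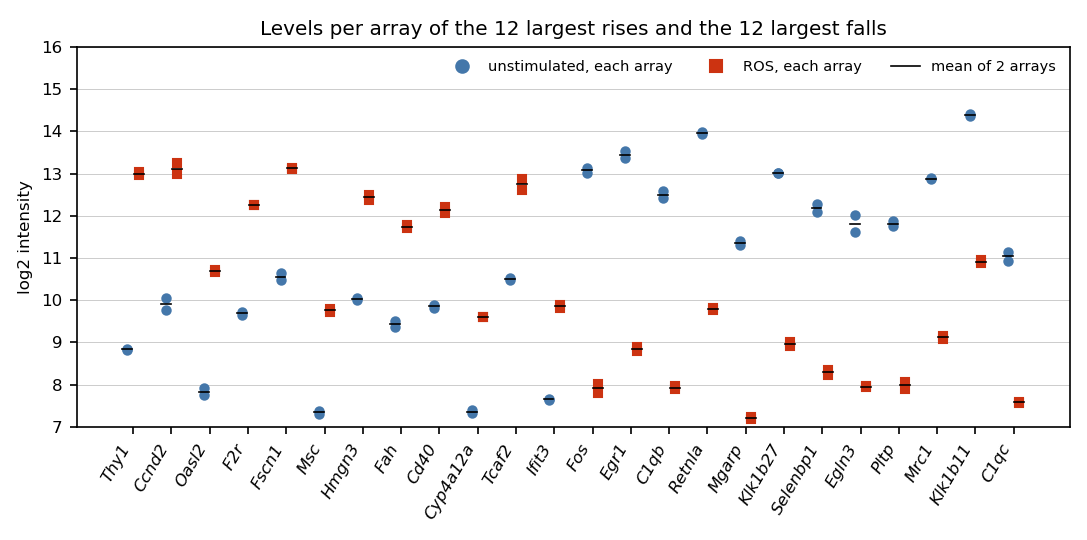
Log2 intensity on each array of the 12 genes with the largest rises and the 12 with the largest falls; blue circles are the 2 unstimulated arrays, red squares the 2 ROS arrays and lines their means. The genes were taken from those called and without overlap between the groups. By that choice both ROS arrays lie on the same side of both unstimulated arrays in each of the 24 genes.

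Interferon-induced genes rose together. Of 34 measured effectors, 27 were called higher and 0 lower (79.4% higher, against 25.6% of all genes), and all 34 differences were above 0, with a median of 0.89 against 0.03 for all genes. Type I interferons signal through STAT2 and IRF9, which act at a repeated GAAA element in the promoters of these genes. That element, searched on both strands as GAAA, any 2 bases and GAAA again, is in capitals in the 250 bases before the RefSeq start (GRCm38.p6) of a pair of the genes that rose, printed 5′ to 3′ on the gene's own strand.
Ifit3, chr19:34583279-34583528, plus strand: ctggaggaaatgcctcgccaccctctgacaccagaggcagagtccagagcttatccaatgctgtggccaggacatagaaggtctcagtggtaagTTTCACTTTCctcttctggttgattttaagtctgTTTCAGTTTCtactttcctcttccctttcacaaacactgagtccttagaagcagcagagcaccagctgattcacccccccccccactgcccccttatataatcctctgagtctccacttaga
Isg15, chr4:156200819-156201068, minus strand: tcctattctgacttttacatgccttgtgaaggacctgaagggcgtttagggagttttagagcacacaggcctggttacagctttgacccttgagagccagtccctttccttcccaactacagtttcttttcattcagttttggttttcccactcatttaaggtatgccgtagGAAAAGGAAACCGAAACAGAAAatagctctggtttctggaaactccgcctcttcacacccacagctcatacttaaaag
Ifit3 holds the element at 2 places and Isg15 at 3 overlapping ones. Among list members with a promoter in the RefSeq table, 12 of 23 held it (52.2%), against 2.92% of the 6584 tested genes with a promoter and 3.04% of all 27025 promoters. Genes called higher held it in 3.21% of cases and genes called lower in 2.87%, so over all calls the shares lay close together. Genes at least 2-fold higher held it in 7.37% of cases and genes at least 2-fold lower in 4.71%.

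Oasl2, an antiviral member of the oligoadenylate synthetase family, was at 7.92 and 7.75 on the unstimulated arrays and at 10.67 and 10.71 after ROS (2.86 ± 0.09). Ifit3, a partner of IFIT proteins that bind viral RNA, was at 7.66 and 7.65 against 9.82 and 9.90 (2.21 ± 0.09), and its 3 probes gave 0.14 to 2.21. Isg15, a ubiquitin-like modifier, was at 7.34 and 7.34 and not detected on either unstimulated array, against 8.77 and 8.64, at least 2.5-fold higher. These 3 genes started close to background. Igtp, a GTPase, rose from 9.20 and 9.20 to 11.04 and 11.08 (1.86 ± 0.08), and Parp14, an ADP-ribosyltransferase, from 10.78 and 10.87 to 12.60 and 12.70 (1.83 ± 0.08). Of 8 oligoadenylate synthetase genes 7 rose, by 0.31 to 2.86, although near-identical copies such as the Oas1 genes may share signal. Mx1 and Zbp1 did not pass, at 0.15 ± 0.10 and 0.01 ± 0.10. Background correction raised the differences of Ifit3 to 3.53 and Isg15 to 3.00.

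Among the regulators of this response, 9 of 18 rose and 2, Ifngr1 and Irf2, fell, although background correction ended the call of Irf2 (adjusted p = 0.0763). Irf7, the factor that amplifies interferon production, rose from 7.62 and 7.48 to 9.13 and 9.25 (1.64 ± 0.09; 3.03 with background correction). Stat2 and Irf9, partners in the interferon signalling complex, rose by 1.00 ± 0.09 and 0.92 ± 0.09 (Stat2 1.66 with background correction). Ifnb1 has no probe in the table. The chain of the interferon gamma receptor that binds the cytokine, Ifngr1, fell from 11.25 and 11.26 to 9.22 and 9.27 (-2.01 ± 0.08). Sensors of nucleic acid in the cytosol rose in 6 of 9 cases and fell in 1, Mavs, the mitochondrial adaptor of RIG-I (-0.36; adjusted p = 0.0566 with background correction). Dhx58, a relative of the RNA sensor RIG-I, rose by 1.72 ± 0.09, Trex1, the nuclease that clears cytosolic DNA, by 1.31 ± 0.08, and Ddx58, which encodes RIG-I itself, by 0.69.

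Maturation and costimulation genes rose in 18 of 23 cases (78.3%, against 25.6% of all genes) and fell in 0, with a median difference of 0.90. Cd40, the receptor through which helper T cells license dendritic cells, was at 9.90 and 9.81 against 12.08 and 12.20 (2.29 ± 0.09). Its 4 probes ranged from 0.10 to 2.29. Cd86, a ligand of CD28 on T cells, was at 12.29 and 12.31 against 14.47 and 14.46 (2.16 ± 0.08), and the other CD28 ligand, Cd80, at 8.77 and 9.14 against 10.81 and 10.36 (1.63 ± 0.15). The ROS arrays were above the unstimulated arrays throughout. Slamf1, a self-binding adhesion receptor of the SLAM family, rose by 1.94 ± 0.11 (0.91 by its other probe) and Ccl22, which attracts regulatory and Th2 cells, by 1.83 ± 0.10. Ccr7, the receptor that guides mature cells to lymph nodes, was at 9.59 and 9.64 against 10.10 and 10.76 (0.81 ± 0.19, adjusted p = 0.00487), and the ROS arrays were far apart. Cd83, a surface marker of maturity, was at 12.21 and 12.11 against 12.17 and 12.52, so that the groups overlapped, and its difference of 0.19 ± 0.13 did not pass.

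Class I and class II antigen presentation genes went opposite ways. For class I, 11 of 20 genes rose (55%) and 0 fell, led by Nlrc5, the transactivator of class I genes, at 9.32 and 9.32 against 10.97 and 10.91 (1.62 ± 0.08). Psme1, a proteasome activator subunit, rose by 0.76 ± 0.08 and Tap1, which pumps peptides into the endoplasmic reticulum, by 0.74 ± 0.09. Class I heavy chains are near-identical copies and moved little, with H2-K1 at 0.28 ± 0.10 (adjusted p = 0.0498, and 0.08 with background correction). Class I rises numbered 5 with no scaling, 7 without the first unstimulated array and 6 without the first ROS array, with 0 falls in the unscaled values.

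Class II presentation genes fell in 13 of 17 cases (76.5%, against 20.2% of all genes) and rose in 0, with a median of -1.20. Class II promoters carry a set of elements of which the Y box, with its CCAAT core, is bound by the factor NF-Y. The letters GATTGG, that core on the other strand, were searched on both strands and are in capitals in the promoters (GRCm38.p6, RefSeq, 250 bases before the start) of a class II alpha and a class II beta chain that fell.
H2-Aa, chr17:34287824-34288073, minus strand: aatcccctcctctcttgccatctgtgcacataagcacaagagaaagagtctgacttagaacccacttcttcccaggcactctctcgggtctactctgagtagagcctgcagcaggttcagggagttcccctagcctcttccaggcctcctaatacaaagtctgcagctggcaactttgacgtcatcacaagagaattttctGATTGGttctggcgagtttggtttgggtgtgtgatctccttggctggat
H2-Eb1, chr17:34305617-34305866, plus strand: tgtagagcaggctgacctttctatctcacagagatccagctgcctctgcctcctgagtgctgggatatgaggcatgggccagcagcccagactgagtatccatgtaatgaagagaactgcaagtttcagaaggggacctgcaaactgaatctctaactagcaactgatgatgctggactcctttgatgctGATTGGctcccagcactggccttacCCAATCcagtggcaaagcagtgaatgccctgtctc
H2-Aa holds 1 copy and H2-Eb1 holds 2. The letters were present in 7 of 13 list promoters (53.8%), against 19.6% of tested genes and 15.1% of all promoters. Among list members called lower, 5 of 10 promoters held them (50%). Over all calls they were in 17.6% of promoters of genes called lower and 21.9% of those called higher. For genes at least 2-fold lower the share was 16.9%, so the letters did not go with falls in general. Ciita, the transactivator that all class II genes need, fell with its targets.

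H2-Aa was at 11.28 and 11.29 on the unstimulated and at 9.01 and 9.14 on the ROS arrays (-2.21 ± 0.08). H2-Ab1, given above, differed by -1.78 ± 0.09, and its 4 probes agreed within -1.95 to -1.78. H2-Eb1 was at 14.35 and 14.29 against 12.59 and 12.68 (-1.68 ± 0.08). All ROS values of these chains lay below all unstimulated values. Ciita was at 10.11 and 10.35 against 9.06 and 8.84 (-1.28 ± 0.13). The peptide-loading chaperone genes H2-DMb1 and H2-DMb2 differed by -1.43 and -1.41, both called, and H2-Ob, which restrains them, was at 8.67 and 8.55 against 7.20 and 7.31, where it was not detected, at least 2.33-fold lower. The invariant chain Cd74 fell least among the genes above, at 15.10 and 14.91 against 14.26 and 14.35 (-0.70 ± 0.12). Ctss, the protease that trims the invariant chain, and Lgmn, which processes antigen, differed by -0.79 and -1.36.

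Receptors for microbes and debris fell as a group. Of 30 Toll-like receptors, lectins and adaptors 18 fell (60%, against 20.2% of all genes) and 3 rose (10%), with a median of -0.55. Of 19 Fc, scavenger and phagocytic receptors 13 fell (68.4%) and 0 rose, with a median of -0.66. Mrc1, which takes up mannosylated glycoproteins, was at 12.89 and 12.87 against 9.09 and 9.16. Cd14, the co-receptor that hands LPS to TLR4, was at 12.45 and 12.44 against 8.98 and 8.99 (-3.46 ± 0.08), and Ticam2, an adaptor of TLR4, at 10.96 and 11.41 against 8.70 and 8.59 (-2.54 ± 0.13). Each was several-fold lower on both ROS arrays. The Toll-like receptors themselves fell in 6 of 7 cases, by 0.52 (Tlr7, a receptor for single-stranded RNA) to 1.39 (Tlr13, a receptor for bacterial ribosomal RNA), and Tlr1 differed by -0.01. Of 6 lectins of the Clec4 family 4 fell and 0 rose, led by Clec4b1 at -2.87 and Clec4a3 at -2.47. The rises were in signalling adaptors, Traf6 by 0.72, Tirap by 0.34 and Myd88 by 0.33. The 3 probes of Traf6 ranged from -0.27 to 0.72, and background correction ended the calls of Tirap (adjusted p = 0.0598) and Myd88 (adjusted p = 0.0778).

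Trem2, a lipid-sensing receptor of macrophages, was at 11.96 and 11.80 against 9.81 and 9.70 (-2.12 ± 0.09), and its adaptor Tyrobp at 10.82 and 10.76 against 9.21 and 9.32 (-1.53 ± 0.11). Among the Fc gamma receptors Fcgr3, Fcgr4 and Fcgr2b fell by 1.44, 1.25 and 1.18 (-0.47 by the other probe of Fcgr2b), and Fcgr1, the high-affinity member, differed by 0.06 and did not pass. Mertk, which takes up apoptotic cells, fell by 1.42. Complement genes fell in 4 of 7 cases (57.1%) and rose in 0. C1qc was at 10.93 and 11.14 against 7.56 and 7.59 (-3.46 ± 0.09), next to its partner chain C1qb, while C4b differed by -0.03. In bulk samples such as these, fewer cells of a type and less RNA per cell cannot be told apart. Of 8 measured macrophage markers 5 fell and 0 rose. Among them Mrc1, Mertk, Fcgr1, Marco, C1qb and C1qc are already counted in the lists above, so these counts are not separate. The summed signal of the 8 was 30502 to 32617 on the unstimulated arrays and 11538 to 16356 on the ROS arrays. The part of macrophages in the result was not tested. Gpnmb, Fcgr1 and Marco, 3 macrophage markers, did not pass, and Adgre1, which encodes F4/80, fell by 0.28, a call that background correction ended (adjusted p = 0.102).

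Cytokines moved in both directions, 4 of 19 up and 5 down, shares of 21.1% and 26.3% that lay near the background. Tnf, the classical inflammatory cytokine, rose from 7.89 and 7.81 to 9.21 and 9.09 (1.30 ± 0.10; 2.15 with background correction). Il1b, the inflammasome product that causes fever, fell from 11.95 and 11.89 to 10.35 and 10.44 (-1.52 ± 0.08). Il6 stayed near the background of the array, at 7.42 and 7.61 against 7.41 and 7.55 (-0.03 ± 0.10). Il15, which sustains natural killer and memory T cells, rose by 0.71 (0.32 by its other probe), while Osm, a cytokine of the IL-6 family, and Tnfsf13b, the B cell survival factor BAFF, fell by 1.15 (-0.54 by the other Osm probe) and 1.14. Among chemokines and their receptors 8 of 20 rose (40%, against 25.6% of all genes) and 7 fell (35%, against 20.2%). Ccl4, an inflammatory chemokine, was already bright at 12.05 and 12.17 and reached 14.13 and 14.15 (2.03 ± 0.09), while Ccl3, a related chemokine, differed by 0.09 and did not pass. Ccl5, which attracts T cells, rose by 0.87, and Ccl24, an eosinophil attractant, fell by 1.12.

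The NF-kappaB system, which drives many inflammatory genes, showed rises in 8 of 16 members and falls in 3, and the rises numbered 4 with background correction or without the first ROS array. The rises included Traf1, an adaptor that is itself a target (1.21 ± 0.15), and members of the alternative branch, Relb (0.81 ± 0.09), Map3k14 (0.58; adjusted p = 0.056 with background correction) and Nfkb2 (0.56). Rela, Rel and the inhibitor Nfkbia differed by -0.17, 0.12 and -0.08 and did not pass. Tnfaip3, the inhibitor A20, fell from 10.40 and 10.13 to 9.17 and 9.33 (-1.01 ± 0.11). Among SOCS and related feedback genes 6 of 17 rose (35.3%) and 4 fell (23.5%). Socs3, which damps IL-6 and G-CSF signals, fell by 1.84 ± 0.08 and Socs2 rose by 1.19. Inflammasome genes rose in 3 of 12 cases and fell in 3, 25% each way and so near the background. Casp4 and Casp1, the caspases that cut gasdermin D, and Gsdmd, gasdermin D itself, rose by 0.85, 0.58 and 0.48, while the sensors Naip2 and Naip5 fell, as Il1b did. The 3 probes of Casp4 ranged from 0.13 to 0.85, and the other Gsdmd probe gave 0.22.

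**Figure D3:**
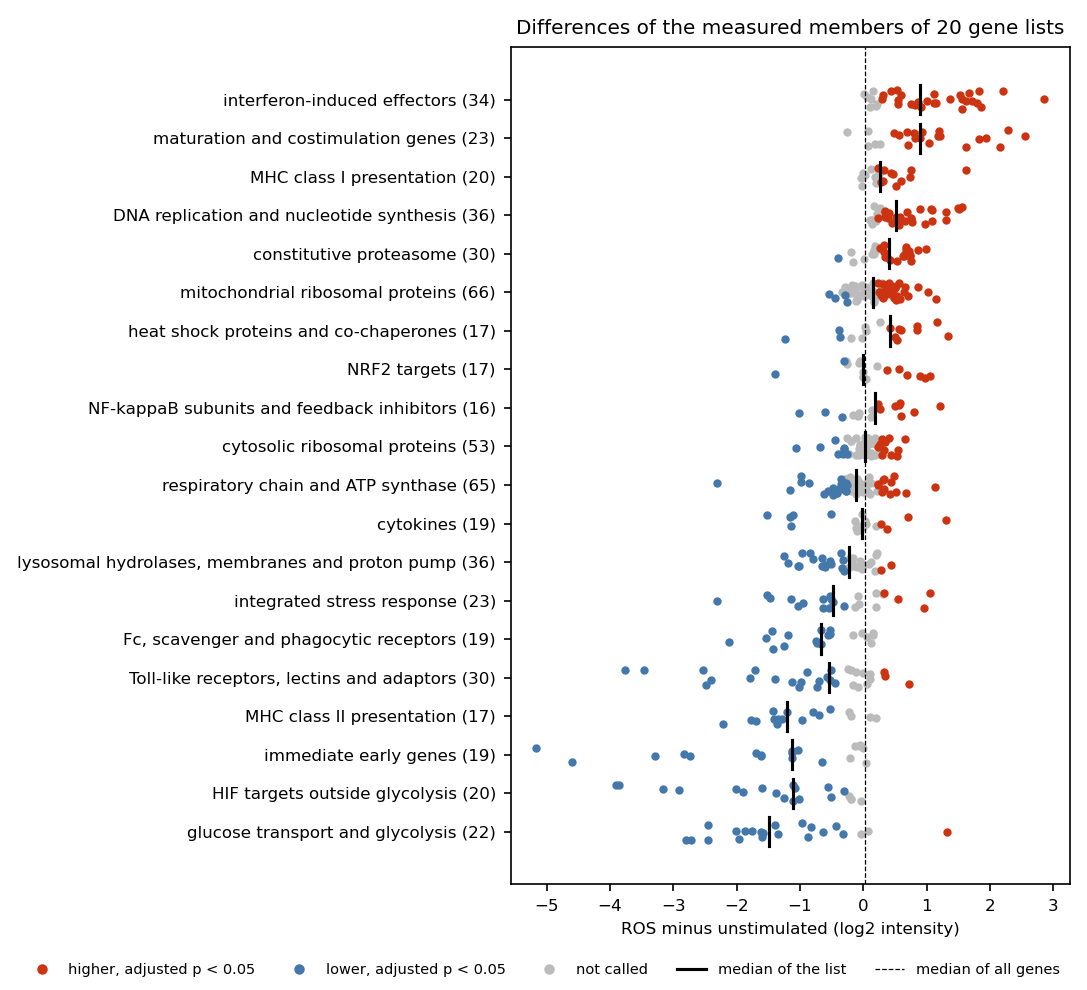
Difference (ROS minus unstimulated, log2 intensity) of every measured member of 20 gene lists, with the number measured in brackets; red and blue points were called higher and lower, grey points were not called, black bars are list medians and the dashed line is the median of all genes at 0.03. Interferon effectors and maturation genes have medians of 0.89 and 0.90, and glycolysis genes a median of -1.49.

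Genes that respond to low oxygen and genes of glycolysis had high shares of falls. Of 20 hypoxia-related genes outside glycolysis 16 fell and 0 rose (80% lower, against 20.2% of all genes), and of 22 glucose transport and glycolysis genes 19 fell and 1 rose (86.4% lower). Pdk1, which fell, is in both lists and so is counted in each. The list medians were -1.11 and -1.49. The hypoxia-inducible factors HIF-1 and HIF-2 are hydroxylated by EGLN enzymes and degraded when oxygen is present, and otherwise bind sites with the core ACGTG. That core is in capitals, on either strand, in the promoters (GRCm38.p6, RefSeq, 250 bases before the start) of Egln3, the deepest fall among the oxygen sensors, and Ldha, a bright glycolytic gene that fell less.
Egln3, chr12:54203875-54204124, minus strand: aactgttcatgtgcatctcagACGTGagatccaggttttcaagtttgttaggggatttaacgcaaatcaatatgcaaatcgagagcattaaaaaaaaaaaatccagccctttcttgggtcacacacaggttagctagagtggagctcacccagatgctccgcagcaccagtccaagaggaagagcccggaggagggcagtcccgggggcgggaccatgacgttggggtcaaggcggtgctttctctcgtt
Ldha, chr7:46845554-46845803, plus strand: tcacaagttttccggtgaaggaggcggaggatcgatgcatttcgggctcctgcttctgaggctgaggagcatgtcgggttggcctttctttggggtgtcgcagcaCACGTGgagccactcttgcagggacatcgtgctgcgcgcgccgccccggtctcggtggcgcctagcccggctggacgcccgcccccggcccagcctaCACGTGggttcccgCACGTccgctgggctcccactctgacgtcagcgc
Egln3 holds 1 match and Ldha 5, of which the overlapping pairs are 1 palindrome read on both strands. The core was present in 9 of 15 promoters of the hypoxia-related list (60%) and in 7 of 21 of the glycolysis list (33.3%), against 22.1% of tested genes. It was in 25.4% of promoters of genes called lower and 19.9% of those called higher.

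Egln3 was at 12.02 and 11.61 on the unstimulated arrays and at 7.95 and 7.96 on the ROS arrays. Vegfa, the main growth factor of blood vessels, was at 11.59 and 11.88 against 8.63 and 8.50 (-3.17 ± 0.11), and Ndrg1, a classical hypoxia-induced gene, at 11.46 and 11.42 against 8.56 and 8.49 (-2.91 ± 0.10). All 3 were thus about as dim on 1 ROS array as on the other. Of 5 prolyl hydroxylases 4 fell, Egln3, Egln1, P4ha1 and P4ha2, while Egln2, which is not known as a HIF target, differed by -0.04. Hif1a itself was at 8.85 and 9.12 against 8.57 and 8.79 (-0.31 ± 0.11, adjusted p = 0.0426, and 0.106 with background correction), and Car9, a carbonic anhydrase used as a hypoxia marker, differed by -0.23 and did not pass, though it was called lower with background correction (adjusted p = 0.0309). Selenbp1, counted in this list, is not an established HIF target.

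Along glycolysis the falls began at uptake. Slc2a1, the glucose transporter GLUT1, was at 13.66 and 13.65 against 11.16 and 11.25 (-2.45 ± 0.08), and Slc2a3, GLUT3, fell by 1.58. Hk2, the inducible hexokinase, was at 14.56 and 14.56 against 12.56 and 12.66 (-1.96 ± 0.09), and the constitutive Hk1 fell by 0.43. In the middle of the pathway Pfkl, a phosphofructokinase, was at 12.72 and 12.82 against 10.29 and 10.36 (-2.45 ± 0.10), although its second probe gave -0.34. Slc2a1, Slc2a3, the hexokinases and Pfkl were lower on both ROS arrays. Of 5 measured glucose transporters 2 fell and 0 rose, and Slc2a6, of the same list, differed by 0.08 and did not pass. The aldolases Aldoc and Aldoa fell by 2.73 and 1.87, Tpi1 by 1.61, Pgam1 by 1.34 and Pkm, pyruvate kinase, by 1.60. Gapdh, often used as a reference gene, was at 15.20 and 15.18 against 14.56 and 14.56 (-0.63 ± 0.08), and Ldha, which makes lactate, at 14.42 and 14.35 against 13.74 and 13.38 (-0.82 ± 0.11). The rise was in Eno2, the neuronal enolase, from 8.35 and 8.49 to 9.76 and 9.74 (1.33 ± 0.09). Eno3, the muscle enolase, which is not in the list and was looked up after the value of Eno2 was seen, rose by 2.04 ± 0.09.

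At the exits from the pathway, Pdk1, which blocks pyruvate entry to mitochondria, was at 9.74 and 9.68 against 7.74 and 7.66 (-2.01 ± 0.08; -3.23 with background correction). Fbp1, the gluconeogenic bisphosphatase, was at 10.26 and 10.08 against 7.35 and 7.42. It was detected on 1 of the 2 ROS arrays and at least 6.81-fold lower there, with a difference of -2.79 ± 0.11 (-4.74 with background correction). Slc16a3, the lactate exporter, differed by -0.03. In the tricarboxylic acid cycle 8 of 19 genes fell and 2 rose, led by Idh1, the cytosolic isocitrate dehydrogenase, at -1.20. The respiratory chain was mixed, with 12 of 65 up (18.5%) and 19 down (29.2%) and a median of -0.12. No scaling gave 3 up and 37 down and background correction 6 and 10. Without the first unstimulated array 7 rose and 12 fell. Its extremes were Cox7a1, a subunit known from heart and muscle, at 10.03 and 9.93 against 7.60 and 7.74 (-2.31 ± 0.09; -3.62 with background correction), and Ndufa4, which rose by 1.14 ± 0.09.

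**Figure D4:**
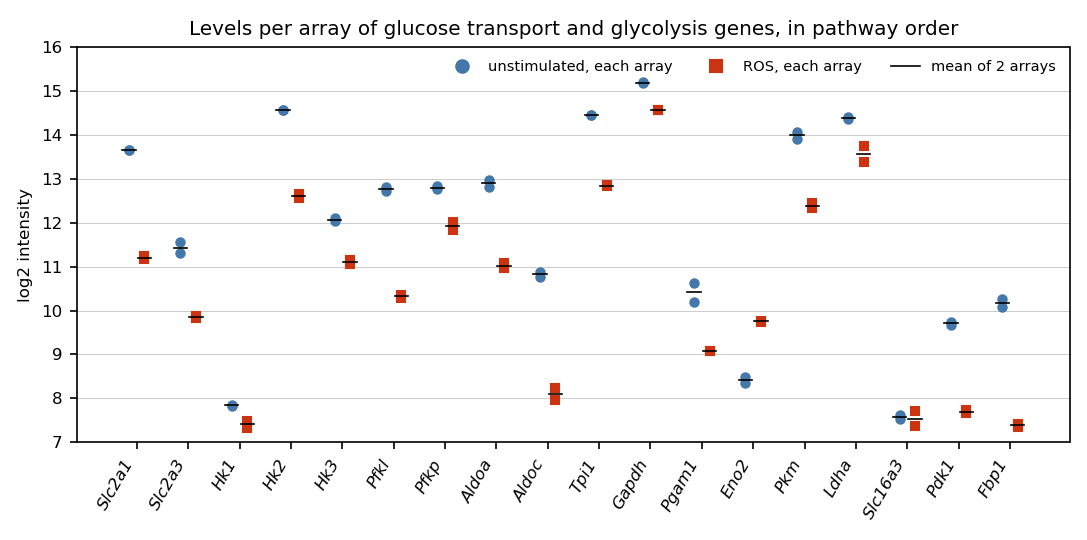
Log2 intensity on each array of 18 glucose transport and glycolysis genes, in pathway order from uptake to lactate export, then Pdk1 and Fbp1; blue circles are unstimulated arrays, red squares ROS arrays and lines their means. Eno2 is the gene with both red squares above both blue circles by more than 1 unit, and Slc16a3 differs by -0.03.

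Immediate early genes, which are transcribed within minutes of a signal and decay quickly, fell in 13 of 19 cases (68.4%, against 20.2% of all genes) and rose in 0, with a median of -1.12. Beside Fos and Egr1, the factors Klf2 and Klf4, known for restraining inflammation in macrophages, were at 11.70 and 11.63 against 8.44 and 8.31 (-3.29 ± 0.09) and at 10.35 and 10.82 against 7.80 and 7.70 (-2.84 ± 0.13). Egr2 fell from 12.94 and 12.96 to 10.20 and 10.24. Jun and Junb, partners of Fos, both fell by 1.12, and Dusp1, a phosphatase that ends MAP kinase signals, by 1.62 ± 0.14. The fall was thus deepest in Fos, Egr1 and Klf2. Myc, Nr4a2 and Egr3 differed by -0.01, -0.05 and -0.14 and did not pass. The CArG box, the site of serum response factor, was found in 1 of 15 promoters of this list within 250 bases (6.67%). The share was 1.18% of tested genes, and that of the list rests on 1 gene.

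The stress programmes did not move as a block. Of 23 integrated stress response genes, induced by ATF4 when translation is limited, 13 fell (56.5%) and 4 rose (17.4%). Chac1, which degrades glutathione, fell from 9.68 and 9.51 to 8.07 and 8.09 (-1.51 ± 0.09). Nupr1, a stress-induced chromatin protein, and Asns, asparagine synthetase, fell by 1.47 and 1.14, and Atf4 itself by 0.63. The rises were in the amino acid transporters Slc7a11 (1.06 ± 0.09) and Slc7a5 (0.97), in Aldh18a1 of proline synthesis (0.54) and in Shmt2 of the folate cycle (0.33). Ddit3, the death-linked factor CHOP, was at 9.87 and 9.97 against 9.85 and 9.86 (-0.06 ± 0.08). Chaperones and XBP1 targets of the endoplasmic reticulum rose in 3 of 13 cases and fell in 3, 23.1% each way and so near the background, from Herpud1 at -0.79, with Hsp90b1 and Pdia4, to Xbp1 at 0.36, with Dnajc3 and Calr. With no scaling 0 rose and 5 fell, and background correction ended the calls of Pdia4, Xbp1 and Calr (adjusted p = 0.0522, 0.0979 and 0.0576).

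Heat shock proteins and co-chaperones rose in 9 of 17 cases (52.9%, against 25.6% of all genes) and fell in 3 (17.6%, against 20.2%). Stip1 and Fkbp4, co-chaperones of HSP90, were at 10.29 and 10.20 against 11.52 and 11.65 (1.34 ± 0.09) and at 10.10 and 10.17 against 11.21 and 11.39 (1.16 ± 0.09). Hsph1, a nucleotide exchange factor of HSP70, rose by 0.86 ± 0.10. Hspa1a, the most inducible HSP70, went the other way. It was at 8.42 and 8.53 against 7.20 and 7.27, not detected on either ROS array, and at least 2.13-fold lower.

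The NRF2 programme, which answers oxidants by making glutathione and detoxifying enzymes, was also divided. Of 17 measured targets 6 rose (35.3%, against 25.6% of all genes) and 2 fell (11.8%, against 20.2%), with a median of 0.00. Slc7a11, the cystine importer that feeds glutathione synthesis, was at 10.77 and 10.73 against 11.72 and 11.90. Nqo1, a quinone reductase, was at 7.71 and 7.68 against 8.69 and 8.63 (0.97 ± 0.08; 1.87 with background correction), and Gclm, a subunit of the first enzyme of glutathione synthesis, at 9.92 and 9.80 against 10.85 and 10.67 (0.90 ± 0.10). These 3 targets were higher on both ROS arrays. Hmox1, which breaks down heme, was at 10.91 and 10.76 against 9.66 and 9.23 (-1.39 ± 0.16, adjusted p = 3.83e-05), and the sulfiredoxin gene Srxn1 differed by -0.06 ± 0.09. Txnrd1 has no probe in the table. The letters TGACNNNGC, the core of the antioxidant response element, were in 2 of 14 promoters of this list (14.3%), against 11.8% of tested genes.

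Antioxidant enzymes rose in 3 of 25 cases (12%, against 25.6% of all genes) and fell in 7 (28%, against 20.2%). Cat, which splits hydrogen peroxide, rose from 10.32 and 10.37 to 11.001 and 11.07 (0.69 ± 0.08). Sod2, the mitochondrial superoxide dismutase, was at 10.88 and 10.49 against 11.02 and 10.89 (0.27 ± 0.12) and did not pass. Gpx3, a secreted glutathione peroxidase, fell by 1.32 ± 0.08 (-2.38 with background correction), and Prdx4, a peroxiredoxin of the endoplasmic reticulum, by 0.92 ± 0.08. Txnip, which binds thioredoxin and follows glucose supply, had the deepest fall of the list, from 11.87 and 11.96 to 9.95 and 9.68 (-2.09 ± 0.10). The NADPH oxidase of phagocytes, itself a source of ROS, had 0 of 6 genes up and 2 down, Rac2 by 0.53 and Ncf4 by 0.38.

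Since hematoporphyrin resembles heme, the genes of porphyrin metabolism were read as well: 2 of 14 rose (14.3%) and 5 fell (35.7%). Alas1, the first enzyme of heme synthesis, rose by 0.51, and Alad, the next, by 0.31, calls that ended with background correction (adjusted p = 0.064 and 0.112) and with no scaling. Hebp1, a heme-binding protein, fell from 9.81 and 10.11 to 8.38 and 8.41 (-1.57 ± 0.11), and the biliverdin reductases Blvrb and Blvra fell by 0.65 and 0.57. Fech has no probe in the table. Of 10 iron genes Slc11a2 rose, though not with no scaling, and Lcn2 and Hfe fell. The shares were 10% up and 20% down, against 25.6% and 20.2% of all genes. The deepest fall was in Hfe, the hemochromatosis gene, at 10.97 and 10.93 against 8.90 and 9.001 (-2.001 ± 0.09).

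Targets of p53 rose in 8 of 21 cases (38.1%, against 25.6% of all genes) and fell in 3 (14.3%, against 20.2%). Fas, a death receptor, was at 10.87 and 10.89 against 12.02 and 12.14 (1.20 ± 0.09). Cdkn1a, the cell cycle inhibitor p21, was at 12.23 and 12.21 against 13.31 and 13.43 (1.15 ± 0.10, with 3 probes from 0.46 to 1.15). Ccng1, cyclin G1, was at 10.89 and 10.88 against 11.85 and 12.06 (1.07 ± 0.09). All 3 were picked as called genes, and their groups did not overlap. Mdm2, the ubiquitin ligase that turns p53 over, rose by 0.32 ± 0.08 (adjusted p = 0.0102), a call that background correction (adjusted p = 0.0627) and no scaling ended, while Bbc3, which encodes PUMA, and Pmaip1, which encodes NOXA, differed by -0.02 and 0.15 and did not pass. Gadd45a fell by 1.10 ± 0.14, and Plk2 and Sesn1 also fell. In the wider apoptosis list 9 of 22 rose (40.9%) and 6 fell (27.3%). Bmf, a BH3-only killer, was at 1.13 and the inhibitor of apoptosis Birc2 at 1.11, with 3 probes from 0.41 to 1.11. Bnip3l, a mitophagy receptor that hypoxia induces, was at -1.90 ± 0.09.

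Genes of DNA replication rose together. Of 36 measured members 26 were called higher and 0 lower (72.2% higher, against 25.6% of all genes), and every one of the 36 differences was above 0, with a median of 0.52. All 7 measured subunits or partners of the MCM family, whose hexamer is the replicative helicase, rose, by 0.46 to 1.56. Mcm5 was at 9.46 and 9.57 on the unstimulated and at 11.11 and 11.04 on the ROS arrays (1.56 ± 0.09). Uhrf1, which maintains DNA methylation behind the fork, was at 8.95 and 8.88 against 10.42 and 10.45 (1.52 ± 0.08), and Tyms, thymidylate synthase, at 9.22 and 9.32 against 10.74 and 10.81 (1.50 ± 0.08), with 4 probes from 0.12 to 1.50. Each ROS array lay above each unstimulated array for these genes. The letters TTTCGCGC, the motif set for this list, were in 2 of 32 replication promoters (6.25%), against 1.35% of tested genes. GATTGG, the letters searched above for class II genes, was present in 15 of the 32 (46.9%). Its share was 19.6% of tested genes and 21.9% of all genes called higher.

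Mitotic genes moved less, with 12 of 31 up, 1 down and a median of 0.12. Aurka and Plk1, the kinases of spindle assembly, rose by 0.90 ± 0.09 and 0.78 ± 0.09, and Cenpa, the centromeric histone, fell from 13.30 and 13.23 to 12.14 and 12.33 (-1.03 ± 0.09). Mki67 has no probe in the table. Among cyclins, inhibitors and Myc family genes 7 of 24 rose and 5 fell, shares of 29.2% and 20.8% near the background. Beside Ccnd2, Mycl, a Myc relative found in dendritic cells, was at 8.33 and 8.47 against 9.99 and 10.38 (1.79 ± 0.12), while the inhibitor Cdkn2b, p15, rose by 1.56 ± 0.11. Ccnd1, the D-type cyclin of adherent cells, fell by 0.30.

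Protein turnover and mitochondrial translation showed small shifts over many genes. The constitutive proteasome rose in 20 of 30 genes and fell in 1, with a median of 0.40. Within it 8 of 12 core subunits and 11 of 16 subunits of the regulatory particle rose, from Psmd10 at 0.27 to Psmc5 at 0.99 ± 0.13 (9.58 and 9.46 against 10.57 and 10.45). The exception was Psmd8, which fell by 0.39. Background correction ended the calls of Psmd10 (adjusted p = 0.088) and Psmd8 (adjusted p = 0.0885), and the other Psmd10 probe gave -0.21. With no scaling of the arrays 13 proteasome genes were called higher and 3 lower. Mitochondrial ribosomal proteins rose in 27 of 66 cases and fell in 4, with Mrpl49 at 1.14 ± 0.09 (0.21 by its other probe) and Mrps6 at 1.03 ± 0.10, but with no scaling 13 were higher and 14 lower. Cytosolic ribosomal proteins rose in 11 of 53 and fell in 8, with a median of 0.02, close to that of all genes; with no scaling 3 were higher and 21 lower, and background correction left 5 and 3 calls. Rpl5 fell by 1.05 ± 0.23 from 11.86 and 12.78, arrays that were nearly 1 unit apart. Cytosolic aminoacyl-tRNA synthetases rose in 3 of 17 cases (Kars, Farsb and Vars) and fell in 5 (Sars, Aars, Nars, Wars and Iars), shares of 17.6% and 29.4%. Background correction ended the calls of Farsb, Vars, Wars and Iars (adjusted p = 0.0539, 0.0757, 0.101 and 0.0948), and the 2 probes of Wars gave -0.30 and 0.22.

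Lysosomal genes leaned downward. Of 36 hydrolases, membrane proteins and proton pump subunits 17 fell and 2 rose, with a median of -0.22. Lamp2, a membrane protein needed for autophagosome fusion, was at 13.25 and 13.33 against 11.92 and 12.18 (-1.24 ± 0.10), and Hexa, a hexosaminidase, at 11.58 and 12.02 against 10.67 and 10.56 (-1.19 ± 0.13). Of the 18 subunits and accessory proteins of the proton pump 3 fell, a share near the 20.2% of all genes. Rises numbered 2, below the share of 25.6% of all genes, and the median was -0.03. Cathepsins and cystatins fell in 9 of 18 cases and rose in 6. Ctsk, a collagen-cutting cathepsin, was at 11.18 and 11.12 against 8.50 and 8.46 (-2.67 ± 0.13). The rises were in the inhibitors Stfa1 (1.72 ± 0.09), Cst7, Cst3 and Cstb, and in Ctsg and Ctsw, proteases of granulocytes and lymphocytes. Background correction ended the calls of Cst3 and Cstb (adjusted p = 0.11 and 0.126), and both differences were below 0 with no scaling. Autophagy genes mostly did not pass, with Becn1 and Uvrag up and Wipi1, Gabarapl1 and Atg7 down among 20; with no scaling 9 were lower.

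Lipid handling genes fell in 13 of 25 cases and rose in 3. Pltp went from 11.77 and 11.87 to 7.90 and 8.07. Vldlr, a lipoprotein receptor, was at 9.80 and 9.96 against 7.55 and 7.59 (-2.31 ± 0.10; -3.80 with background correction), and Hilpda, a lipid droplet protein that hypoxia induces, at 12.04 and 12.31 against 10.02 and 9.72 (-2.30 ± 0.13). The fall held on both arrays in each case. Apoe was at 8.91 and 8.67 and was not detected after ROS, at least 2.65-fold lower. Sterol genes were divided, with 6 of 21 up (28.6%) and 8 down (38.1%). The synthesis enzymes Hsd17b7 (1.31 ± 0.10), Fdps (1.23 ± 0.08) and Cyp51 (1.18 ± 0.09) rose, as did Ch25h, which makes 25-hydroxycholesterol (1.45 ± 0.10), while Abcg1, which exports cholesterol, fell by 1.23 ± 0.09 and Sqle, squalene epoxidase, by 0.40 (adjusted p = 0.0689 with background correction).

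Eicosanoid genes rose in 5 of 16 cases (31.2%) and fell in 8 (50%). Ltb4r1 and Cysltr1, receptors of leukotrienes, fell, with differences of -1.56 ± 0.08 and -1.51 ± 0.09, as did Tbxas1, thromboxane synthase (-1.51 ± 0.09). Alox5, which starts leukotriene synthesis, rose by 0.83, while its activating protein Alox5ap fell by 1.23 ± 0.11. Genes of arginine metabolism and of the IL-4 response fell in 13 of 24 cases and rose in 5. Arg1, arginase, was at 14.62 and 14.42 against 11.37 and 11.17 (-3.25 ± 0.11), and the arginine importer Slc7a2 at 13.24 and 13.32 against 10.90 and 11.06 (-2.30 ± 0.09, with 3 probes from -2.30 to -0.08). Both remained well above background after ROS. Srm, spermidine synthase, rose from 8.59 and 8.81 to 10.23 and 10.21 (1.52 ± 0.10; 0.65 by its other probe), and Chil3, the chitinase-like Ym1, fell by 0.56 ± 0.08, with probes from -1.21 to -0.47.

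Integrin and adhesion genes leaned downward, since 11 of 21 fell (52.4%) and 3 rose (14.3%), Thy1, Itgae and Icam1. Cd81, a tetraspanin, was at 12.81 and 12.57 against 10.81 and 10.90 (-1.83 ± 0.10), and Itgb5, the beta chain of an uptake integrin, fell by 1.43 ± 0.11 (-2.39 with background correction). Actin genes were balanced, with 8 of 33 up and 9 down, shares of 24.2% and 27.3% near the background. Actb, another common reference gene, was at 15.01 and 15.20 against 15.84 and 15.65 (0.64 ± 0.13), Coro1a rose by 1.12 ± 0.08 with 4 probes from -0.09 to 1.12, and Myo1f, a leukocyte myosin, fell by 1.30 ± 0.17. Gapdh and Actb, both used as constant references, thus moved in opposite directions, as they did with no scaling (-0.97 and 0.43). Rab GTPases rose in 10 of 42 cases and fell in 10, 23.8% each way and so near the background, or in 5 and 17 with no scaling and with 6 rises without the first unstimulated array. Rab27a, which docks secretory lysosomes, rose from 11.05 and 11.11 to 12.66 and 12.64, and Rab7b, which sends TLR4 to lysosomes, fell by 1.30 ± 0.10. Of 150 solute carriers 29 rose and 30 fell, shares of 19.3% and 20% that lay near the background, and with no scaling 20 rose and 47 fell.

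Transcription factors of dendritic cell identity rose in 5 of 24 cases (20.8%) and fell in 9 (37.5%). Zeb1 rose and its relative Zeb2 fell, at 9.67 and 9.79 against 10.84 and 10.80 (1.09 ± 0.09) and at 9.65 and 10.17 against 9.01 and 8.54 (-1.14 ± 0.17). Pparg, the lipid-sensing receptor, and Nr1h3, the oxysterol receptor LXR alpha, fell by 0.96 and 0.52. Spi1, which encodes PU.1, and Id2 differed by -0.08 and -0.05 and did not pass.

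Markers of granulocytes moved with the groups. All 5 measured mast cell and basophil markers rose, and their summed signal was 3035 to 3173 on the unstimulated and 10235 to 10674 on the ROS arrays. Cpa3, a mast cell carboxypeptidase, was at 9.11 and 9.05 against 11.14 and 11.33 (2.16 ± 0.11, with 3 probes from 0.22 to 2.16). Hdc, which makes histamine, was at 9.60 and 9.48 against 11.47 and 11.51 (1.95 ± 0.09), and the basophil protease Prss34 at 9.88 and 9.90 against 11.78 and 11.42 (1.71 ± 0.11). Each was more than 3-fold higher on the ROS arrays. Fcer1a, the IgE-binding chain, and the transcription factor Gata2 rose by 1.60 ± 0.09 and 0.98 ± 0.15 (Gata2 adjusted p = 0.0689 with background correction), while Kit, Mcpt4, Mcpt8, Ms4a2 and Tpsb2 have no probe in the table. Eosinophil markers rose in 3 of 4 cases and fell in 1, while Ccr3, Ear1, Ear2, Il5ra and Siglecf have no probe in the table. Their summed signal was 9725 to 10069 against 21114 to 22075, sums in which the bright Prg2 weighs most. Epx was not detected on either unstimulated array and was at least 1.22-fold higher after ROS. Prg2, the major basic protein, rose by 1.28 ± 0.09, and the ribonucleases Ear6 and Ear10 moved apart, by 1.72 ± 0.09 and -2.67 ± 0.15, although the probes of such near-identical copies are uncertain.

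Neutrophil markers split by the stage at which they are made. The primary granule proteases and peroxidase of early precursors rose, Ctsg from 8.36 and 8.37 to 10.11 and 10.11 (1.75 ± 0.08), Prtn3 by 1.19 ± 0.10, Mpo by 0.88 ± 0.09 and Elane by 0.32 ± 0.08. Genes of later granules fell, Ltf from 13.72 and 13.76 to 11.96 and 12.05 (-1.74 ± 0.08; -0.75 by its other probe), Mmp9 by 1.69 ± 0.12, Ngp by 1.55 ± 0.09 and Camp by 1.44 ± 0.09. In all 4 of 14 markers rose and 9 fell, among them S100a9, whose call background correction ended (adjusted p = 0.0827), and their summed signal was 83895 to 86094 against 62785 to 66026. S100a8, the most abundant of them in neutrophils, differed by 0.15 ± 0.09. Grouping by granule stage followed a look at the values and is a description. The part of granulocytes in the gene lists above was not tested. Dendritic markers summed to 93463 to 104379 on the unstimulated and 59628 to 61029 on the ROS arrays, sums in which the bright H2-Ab1 and Cd74, both lower after ROS, weigh most. For T and B, natural killer, erythroid and stromal cells 1, 3, 1 and 3 markers were measured, with differences between -0.41 and 0.39.

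**Figure D5:**
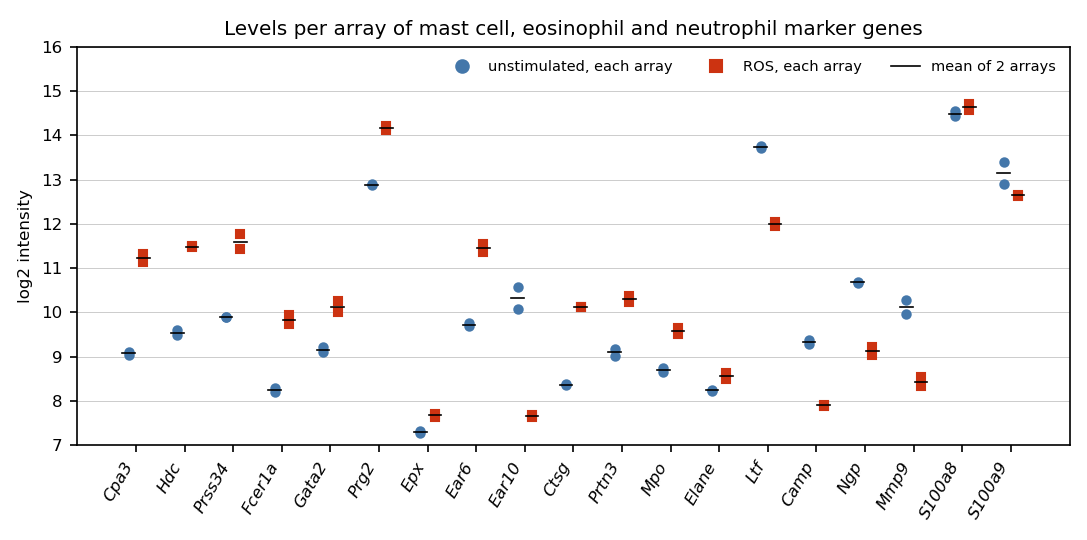
Log2 intensity on each array of mast cell and basophil (Cpa3 to Gata2), eosinophil (Prg2 to Ear10) and neutrophil (Ctsg to S100a9) marker genes; blue circles are unstimulated arrays, red squares ROS arrays and lines their means. Both ROS arrays lie above both unstimulated arrays from Cpa3 to Ear6 and from Ctsg to Elane, and below them for Ear10 and from Ltf to Mmp9.

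The LPS arrays of the series share the unstimulated controls, so their levels are given beside the ROS levels without a comparison. Thy1, at 13.04 and 12.96 after ROS, was at 8.66 and 8.59 after LPS, and Fscn1, at 13.14 and 13.11 after ROS, was at 9.86 and 9.86. Ifit3, at 9.82 and 9.90 after ROS, was at 14.80 and 14.60 after LPS, and Cd86 was at 14.47 and 14.46 and at 14.33 and 14.19 in the same order. Hk2 was at 12.56 and 12.66 after ROS and 13.78 and 13.67 after LPS. Fscn1 bundles actin, and Hk2 is the inducible hexokinase described above. Cpa3 was at 11.14 and 11.33 after ROS and 7.50 and 7.76 after LPS, and H2-Ab1 at 13.80 and 13.74 against 14.87 and 14.94.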

How the data were processed

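RNA had been read on Illumina mouse bead arrays with 1 colour. The deposited intensity signals came from GenomeStudio 2009.2, per the submitters' processing notes, with detection p-values in the deposited table for 5 of the 6 arrays. The authors' second deposited table holds log2 intensities of 11220 probes. Each column has the same sorted values (quantile normalised) and the signals' ranks (100% equal), with no statement on background in the labels. Of its probes 10965 were detected on at least 3 of the 5 arrays with detection p, and 255 on 2 of them. Of its probes 10558 have 1 gene symbol, 0 several and 662 none, and 10551 matched RefSeq (GRCm38.p6). The probe with the highest mean over 6 arrays represented each of 7989 genes; 1917 had several probes. Limma 3.58.1 in R 4.3.3 fitted 1 coefficient per group over 6 arrays (lmFit, eBayes; 3 residual and 7.56 prior degrees of freedom), with Benjamini-Hochberg adjustment over 11220 probes. Where a gene was not detected on an array of a group, a bound sets that array at its lowest detected value. The script was tested on simulated data. Members and gene lists were chosen with earlier results of these data known. Named were the 15 largest changes each way, taken from called genes whose groups did not overlap. Up to 4 called genes per list and a preset panel were added. Other names complete a list or family, or were chosen after their values were seen. Same-numbered replicates did not deviate together (r = -0.137 between unstimulated and ROS), so numbers were not used as pairs. Alternatives were normexp background correction (offset 16), other scalings and filters, the mean of a gene's probes, a replicate block and leaving out each array.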

Additional observations from a re-analysis of the deposited data

Results flagged for a closer look

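Some probes outside the authors' log2 table, which holds 11220 of 25697 probes, were detected in 1 group only. They were picked by that detection, so a difference between the groups follows from the choice. A total of 193 were detected (detection p under 0.05) on both ROS arrays and on no unstimulated array. Their median signal was 183 intensity units after ROS against 166, and the largest difference was 355 and 305 against 140 and 135. The reverse held for 199, with a median of 194 units on the unstimulated arrays against 158 after ROS. The largest difference among these was 882 and 889 units on the unstimulated arrays against 141 and 154 after ROS. The probes of both kinds are unnamed here and enter no comparison above.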

How the results depend on the processing

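Of 318 genes named or counted by name, 288 were called, and 251 of these stayed past the threshold in the same direction under every alternative run. The call of 37 was lost at least once. Normexp background correction ended 27 of these calls, those of Adgre1, Alad, Alas1, Calr, Cst3, Cstb, Farsb, Gata2, H2-K1, Hif1a, Iars, Irf2, Klrd1, Map3k14, Mavs, Mdm2, Myd88, Pdia4, Psmd10, Psmd8, Rpl36a, S100a9, Sqle, Tirap, Vars, Wars and Xbp1. No scaling or leaving out 1 array ended those of Ccnd1, Cd79b, Dnajc3, Elane, Hba-a1, Kars, Sesn1, Shmt2, Slc11a2 and Uvrag. With no scaling Cst3 and Cstb reversed, to -0.0823 and -0.0703. A further 9 uncalled genes (Car9, Ddit3, Gpnmb, Irf4, Itgax, Nfkbia, Rela, Sod2 and Srxn1) were called at least once. The cause of these changes was not tested. The counts were 2049 higher and 1613 lower. With no scaling they were 1138 and 2443, and with a difference of at least 1 also required 254 and 321. Normexp background correction gave 1696 and 1404 and shared 2955 calls with the authors' values, all in the same direction. Leaving out 1 array gave 1559 to 2023 higher and 1267 to 1618 lower. The replicate number as a block gave 1953 and 1566, and, chosen after seeing the data, a block with the ROS numbers exchanged gave 2098 and 1659. Few probes near background can be ordered, since 8.26% of the 1998 dimmest genes were called higher.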
